A study of Homo sapiens with 40 samples.

Results

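The translation initiation factor genes are the protein-coding genes whose symbols begin with EIF1 to EIF6, leaving out the EIF2AK genes, which encode kinases that act on eIF2. The rule found 52 genes among the 60279 genes listed in the count tables, of which 19550 are annotated as protein-coding. By factor, 5 belong to eIF1, 11 to eIF2, 14 to eIF3, 16 to eIF4, 5 to eIF5 and 1 to eIF6. They were described in single cells of T47D, a human luminal breast cancer line, taken at passage 10 from 1 culture with no treatment named and sorted by FACS on EpCAM and integrin α6. The mRNA was amplified with G&T (genome and transcriptome sequencing, in which mRNA is pulled onto oligo-dT beads before reverse transcription), with the SMART-seq HT kit (Takara) or with the NEBNext Single Cell/Low Input kit (NEB), in 13, 13 and 14 cells. G&T and Takara use a template-switching oligo with a locked nucleic acid, and NEB does not. NEB cDNA also had more PCR cycles than that of G&T and Takara. Its sequencing libraries were made with the reagents of its own kit, those of G&T and Takara with Nextera XT. These differences cannot be told apart in any comparison with NEB. After the quality thresholds of the study, 11 cells of each protocol were kept. Each protocol was sequenced in 1 run, no separate cultures are named for it, and its number of plates is not stated. A difference between protocols thus cannot be told apart from one between runs or plates. Cells are not replicates of a protocol, and no test between protocols was made.

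Initiation brings the ribosome to the start codon of an mRNA. eIF2, a trimer, carries the initiator tRNA to the small ribosomal subunit in its GTP-bound form, and eIF2B recharges it with GTP. eIF1, eIF1A and the large eIF3 complex assemble on the small subunit and take part in scanning, while eIF4E binds the mRNA cap, eIF4G bridges cap and ribosome and eIF4A, helped by eIF4B and eIF4H, unwinds the leader. eIF5 triggers GTP hydrolysis on eIF2, eIF5B joins the large subunit and eIF6 keeps free large subunits apart from small ones. eIF5A bears the family name but acts mainly in elongation and termination. Phosphorylation of eIF2 and the 4E-BPs, which sequester eIF4E, are the main brakes on the pathway, and in breast cancer eIF4E and its regulators are much studied.

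Some members are so alike in sequence, or so covered by other genes, that their reads cannot be assigned with confidence, and 3 sets of coding sequence from GRCh38 are shown for that reason and for their base composition. EIF5AL1 is a near copy of EIF5A, and over the whole coding region 457 of 462 bases were identical. The first 120 coding bases of EIF5A (chr17:7309636-7309755, plus strand), EIF5AL1 (chr10:79512650-79512769, plus strand) and EIF5A2 (chr3:170907687-170907806, minus strand) follow, with bases that differ from EIF5A in capitals. EIF5AL1 shared 118 of these 120 bases with EIF5A and EIF5A2 shared 91.
EIF5A: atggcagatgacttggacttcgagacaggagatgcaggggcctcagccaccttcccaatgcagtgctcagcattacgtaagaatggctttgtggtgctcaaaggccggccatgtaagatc
EIF5AL1: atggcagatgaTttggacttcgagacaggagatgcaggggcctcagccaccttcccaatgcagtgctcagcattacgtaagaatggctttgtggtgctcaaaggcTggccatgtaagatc
EIF5A2: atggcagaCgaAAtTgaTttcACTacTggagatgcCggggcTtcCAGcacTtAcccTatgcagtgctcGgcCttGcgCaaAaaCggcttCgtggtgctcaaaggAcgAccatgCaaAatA

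EIF3C and EIF3CL, which lie on the same chromosome, are a second such pair. Of 100-base windows along their exons, 94.7% of those of EIF3C and 95.2% of those of EIF3CL also occur elsewhere in the genome. The stretch below, from EIF3C (chr16:28731829-28731948, plus strand) and EIF3CL (chr16:28383362-28383481, minus strand), was identical over all 120 bases and so carries no capitals. Repeated windows were also frequent in EIF1AX (32.0%), EIF5AL1 (31.7%), EIF4E (19.8%), EIF4B (14.8%) and EIF4H (14.4%), and their counts are uncertain to that extent.
EIF3C: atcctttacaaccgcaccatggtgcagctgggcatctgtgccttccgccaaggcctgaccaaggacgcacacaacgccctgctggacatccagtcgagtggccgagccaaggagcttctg
EIF3CL: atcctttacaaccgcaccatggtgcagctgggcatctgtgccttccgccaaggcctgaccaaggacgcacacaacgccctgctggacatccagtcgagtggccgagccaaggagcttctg

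The last set shows the base composition of 4 members past 2-fold between Takara and NEB, chosen after their values were seen, with G and C in capitals. EIF2S3 and EIF2S2 were higher in NEB, EIF4G1 and EIF4H in Takara. The windows of 90 coding bases lie in EIF2S3 (chrX:24073091-24073180, plus strand), EIF2S2 (chr20:34105456-34105545, minus strand), EIF4G1 (chr3:184321282-184321371, plus strand) and EIF4H (chr7:74187611-74187700, plus strand). They hold 46.7%, 36.7%, 61.1% and 61.1% G and C, and over the whole transcript the 4 genes hold 41.0%, 44.4%, 56.7% and 51.9%.
EIF2S3: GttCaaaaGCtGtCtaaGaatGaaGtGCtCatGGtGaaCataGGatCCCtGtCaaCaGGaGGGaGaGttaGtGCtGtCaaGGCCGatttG
EIF2S2: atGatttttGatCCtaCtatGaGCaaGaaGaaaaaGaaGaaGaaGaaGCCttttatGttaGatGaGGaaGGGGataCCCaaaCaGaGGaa
EIF4G1: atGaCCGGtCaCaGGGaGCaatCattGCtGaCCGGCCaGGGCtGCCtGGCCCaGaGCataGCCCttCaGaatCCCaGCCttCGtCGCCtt
EIF4H: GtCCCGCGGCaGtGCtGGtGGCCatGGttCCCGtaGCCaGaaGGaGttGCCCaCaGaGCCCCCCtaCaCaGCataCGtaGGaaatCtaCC

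Reads on genes per kept cell ranged from 658154 to 1166633 in G&T, from 818512 to 1287911 in Takara and from 624772 to 963816 in NEB. ERCC spike-ins took 1.86 ± 0.474% of G&T reads, 0.968 ± 0.264% of Takara reads and 11.7 ± 4.10% of NEB reads (mean ± SD, n = 11 cells). Genes detected per cell averaged 11348, 11178 and 5277. All 8 luminal markers checked (EPCAM, KRT8, KRT18, KRT19, GATA3, FOXA1, ESR1 and PGR) had reads in each protocol, whereas of the 3 endothelial and 3 stromal markers only COL1A1 had a mean pooled level of at least 5 CPM (reads per 1e+06 reads on genes). Summed by cell, the endothelial markers reached at most 25.5, 0 and 0 CPM in G&T, Takara and NEB and the stromal ones 47.2, 48.5 and 50.0 CPM. CDH5 had no read in any kept cell. Their part in the results below was not tested.

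The initiation factor genes took a larger share of the reads in NEB than in the other protocols, and the subunits of eIF2 held much of that excess. Summed over members, the pooled level, which is the reads of all kept cells in CPM of the reads on genes, was 9015 CPM for G&T, with 8954 to 9075 as its 95% Poisson interval, 10886 CPM for Takara, with 10826.5 to 10946, and 18053 CPM for NEB, with 17959.5 to 18146. These intervals cover counting error only, since reads without molecular identifiers are not independent molecules. By cell the sum was 9032 ± 1499 CPM in G&T, 10927 ± 1203 CPM in Takara and 18128 ± 1853 CPM in NEB (SD, n = 11 cells). The lowest NEB cell had 16340.3 CPM, above the highest cell of G&T (11225 CPM) and of Takara (13228 CPM), while G&T and Takara overlapped. EIF2S1, EIF2S2 and EIF2S3 took 13.5% of the member reads in G&T cells, 8.59% in Takara cells and 38.7% in NEB cells. Without these 3 genes the pooled sums were 7794, 9951 and 11063 CPM. All of these are shares of the reads, so less RNA of these genes and more RNA of other genes cannot be told apart. Against the spike-ins the order was another: member reads per 100 ERCC reads were 51.6 ± 17.5 with G&T, 122 ± 43.8 with Takara and 15.6 ± 6.53 with NEB (mean ± SD, n = 11 cells).

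By factor, the protocols did not keep 1 order. The eIF1 genes summed to 1172 CPM in G&T, 1556 CPM in Takara and 867 CPM in NEB, so NEB was lowest, whereas the eIF2 genes summed to 1659, 1803 and 7628 CPM. The eIF3 genes had 2378, 2787 and 3137 CPM and the eIF4 genes 2834, 3661 and 4309 CPM, with overlapping cells in all 3 protocols. The eIF5 genes had 799.8 CPM in G&T, 720.3 CPM in Takara and 1938.5 CPM in NEB, and the single eIF6 gene had 172, 359 and 173 CPM. In the eIF2 genes every NEB cell (5400.4 to 10164 CPM) lay above every G&T cell (1332 to 2024 CPM) and every Takara cell (1574 to 2161 CPM).

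**Figure D1:**
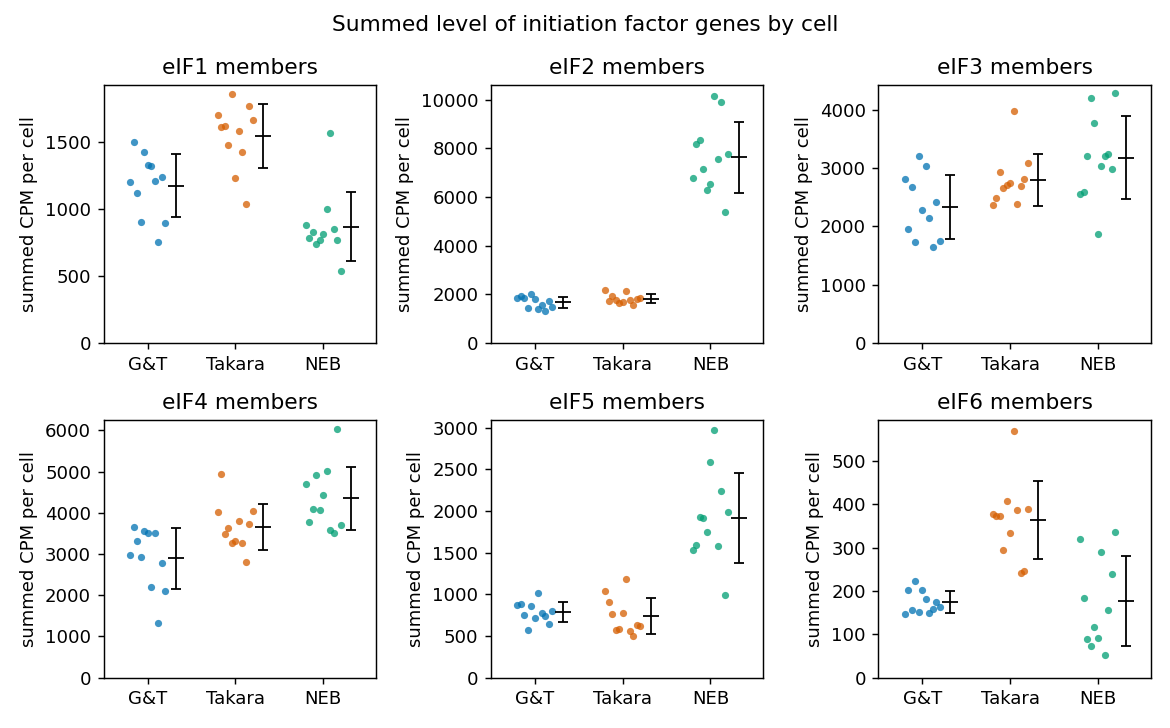
Summed CPM of the members of each factor in each kept cell (points) of G&T, Takara and NEB, with mean ± SD (n = 11 cells). For eIF2 the NEB cells, from 5400.4 to 10164 CPM, stand above all other cells, and for eIF1 the NEB mean (868 CPM) is the lowest.

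Within G&T, the cell in well E2 had the lowest sum (5956 CPM), the lowest sum of 4 of the 6 factors, the lowest reads per ERCC read (35.4) and the highest share of ERCC reads (2.75%). Takara well E2 likewise had the lowest sum of its protocol (8829.7 CPM). Over the 11 G&T cells the summed level and reads per ERCC read had a Spearman rho of 0.67 and a Pearson r of 0.66, which was 0.45 without the 2 cells farthest from the median. In Takara rho was 0.33 and r 0.22, or 0.21 without such cells. In NEB rho was -0.02 and r 0.02, but r was 0.63 without the 2 farthest cells, so the NEB value rests on those cells. Both measures of a cell come from the same library.

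Most members were captured in each G&T and Takara cell and fewer in NEB cells. Of the 52 members, 47.7 ± 1.42 had at least 1 read per cell with G&T, 46.2 ± 1.17 with Takara and 37.0 ± 2.90 with NEB (mean ± SD, n = 11 cells). Thinned to 624772 reads per cell, the means were 47.2, 45.6 and 36.9, and at a minimum of 5 reads they were 43.9, 43.6 and 34.4. The lowest G&T cell (46 members) and the lowest Takara cell (44) lay above the highest NEB cell (43). Of the 44 members with a mean pooled level of at least 5 CPM over the protocols, 42 had reads in every kept G&T cell, 41 in every Takara cell and 23 in every NEB cell. Among all 9325 protein-coding genes at that level, the shares were 57.6%, 68.0% and 14.2%. The spread between cells was smaller than for most genes. The median coefficient of variation of the members was 45.1% with G&T, 32.2% with Takara and 69.8% with NEB, and over all such genes with reads it was 76.2%, 56.3% and 159%. The genes were not matched to the members by level, and the part of level in detection and in spread was not tested.

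A member was called higher or lower at a ratio of at least 2-fold between pooled CPM + 1 of 2 protocols, which understates the ratio of low genes. For G&T over Takara, 5 members were higher (17.8% of all 9325 genes were) and 10 were lower (19.8% of all genes). Against NEB, 9 were higher in G&T (41.0%) and 14 lower (20.6%), and 18 were higher in Takara (41.7%) and 13 lower (22.9%). In either direction these are 15, 23 and 31 members, or 34.1%, 52.3% and 70.5% of the 44, beside 37.6%, 61.6% and 64.6% of all genes. The median log2 ratio of the 44 members was -0.36, -0.21 and 0.29 in the 3 comparisons, against -0.0898, 0.493 and 0.470 over all genes. Each protocol enters 2 of these comparisons, so they are not independent.

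Gaps wider than the spread between cells were fewer. The lowest cell of G&T lay above the highest cell of Takara for EIF2S3 and EIF5B (2 members, 0.901% of all genes), and below the lowest Takara cell lay all G&T cells for EIF4A3 and EIF6 (2 members, 1.97%). Between G&T and NEB, EIF4G1 was apart with G&T higher (4.77% of all genes), and EIF2S1, EIF2S2, EIF2S3, EIF4B and EIF5 were apart with NEB higher (1.60%). Between Takara and NEB, EIF3I, EIF4G1, EIF4H and EIF5A were apart with Takara higher (11.6%), and EIF2S1, EIF2S2, EIF2S3, EIF3E, EIF4B and EIF5B with NEB higher (2.28%). In either direction these are 4, 6 and 10 members, or 9.09%, 13.6% and 22.7% of the 44, beside 2.87%, 6.37% and 13.9% of all genes. All genes were not matched to the members by level, and the part of level in these gaps was not tested.

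**Figure D2:**
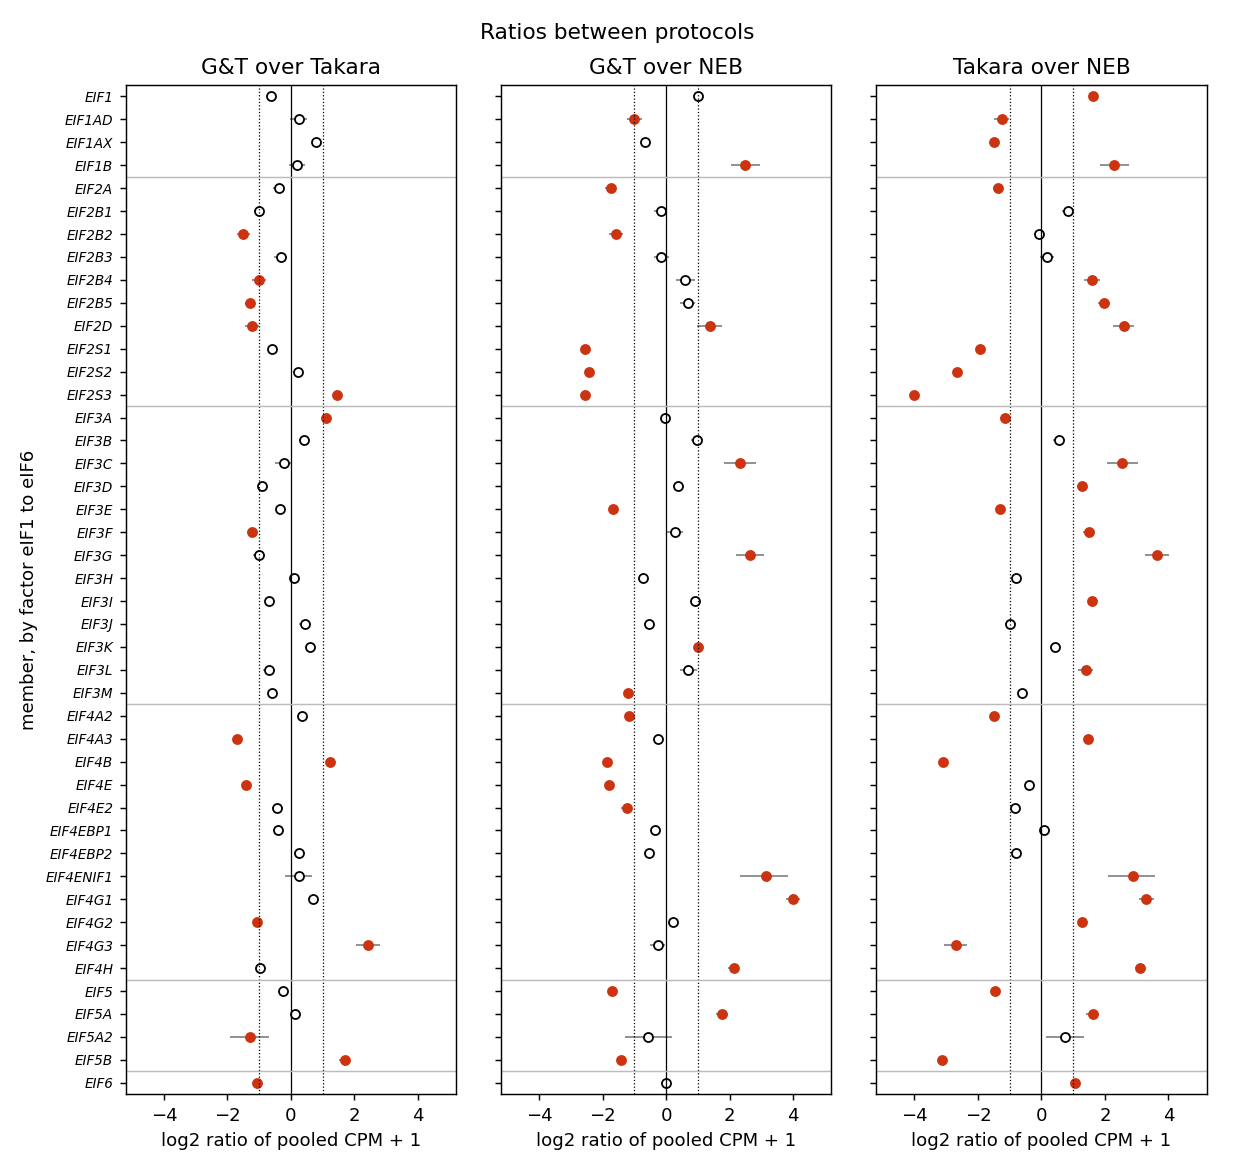
Log2 ratios of pooled CPM + 1 for the 44 members with a mean level of at least 5 CPM, ordered by factor, in the 3 comparisons, with 95% Poisson-based intervals (grey bars). Filled points are past 2-fold (dotted lines at -1 and 1), which are 15, 23 and 31 members.

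Levels by cell are given from here on as the lowest, the median and the highest of the 11 kept cells of a protocol. In eIF1, EIF1, which guards start codon choice, had 491, 958 and 1079.5 CPM in G&T, 903, 1389 and 1649 CPM in Takara and 280.1, 379 and 972 CPM in NEB. NEB cells sat low, overlapping both others, and the log2 ratio was 1.63 (95% interval 1.56 to 1.70) for Takara over NEB, just within 2-fold for G&T over NEB (0.99). EIF1B, its close paralogue, had 9.91, 43.9 and 91.3 CPM in G&T, 20.4, 38.8 and 66.7 CPM in Takara and 0, 0 and 30.8 CPM in NEB. It was seen in 3 NEB cells, and both ratios to NEB were past 2-fold (2.49 and 2.30). Per length, EIF1 took 90.8%, 94.6% and 96.9% of the reads of the pair in G&T, Takara and NEB.

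The eIF1A side went the other way. EIF1AX, on chromosome X, had 124, 188 and 332 CPM in G&T, 84.2, 102 and 216 CPM in Takara and 179, 289.7 and 515 CPM in NEB, and NEB was past 2-fold above Takara (log2 ratio -1.48 for Takara over NEB). EIF1AD, a protein with an eIF1A-like domain, had 13.5, 37.7 and 91.8 CPM in G&T, 15.7, 32.6 and 89.8 CPM in Takara and 14.2, 93.8 and 225 CPM in NEB. Its pooled ratio to NEB was -1.01 for G&T and -1.25 for Takara, with cells of all protocols overlapping, and the G&T call ended when any of 11 single cells was left out. EIF1AY lies on chromosome Y and its level is not described.

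The eIF2 trimer gave some of the widest gaps of the family. EIF2S1 (ENSG00000134001, chr14:67360328-67386516, plus strand) encodes the α subunit that stress kinases phosphorylate, and it had 148, 252 and 374 CPM in G&T, 207, 376 and 688 CPM in Takara and 768, 1604 and 2081 CPM in NEB. EIF2S2 (ENSG00000125977, chr20:34088309-34112243, minus strand) encodes the β subunit, with 289, 385 and 635 CPM in G&T, 229, 342 and 484 CPM in Takara and 1372, 2074 and 3049 CPM in NEB. EIF2S3 (ENSG00000130741, chrX:24054946-24078810, plus strand) encodes the γ subunit that binds GTP and the initiator tRNA, and it had 344, 489 and 849 CPM in G&T, 133, 214 and 241 CPM in Takara and 2262, 3183 and 4524 CPM in NEB. For all 3 subunits every NEB cell lay above every cell of the other protocols. The log2 ratios to NEB were -2.54, -2.42 and -2.57 for G&T and -1.93, -2.64 and -4.01 for Takara. EIF2S3 also separated the other protocols, with every G&T cell above every Takara cell and a log2 ratio of 1.44 (95% interval 1.34 to 1.53). In RPKM, which divides CPM by the kilobases of merged exons, the 3 subunits were at 46.0, 162 and 138 with G&T, 70.3, 138 and 50.8 with Takara, and 269, 866 and 820.1 with NEB. The γ subunit thus ranked 4 of the 52 members by G&T, 16 by Takara and 2 by NEB. With the length of the MANE Select transcript it ranked 7, 24 and 1. EIF2S3B, a retrocopy of EIF2S3, had 6, 5 and 0 reads.

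**Figure D3:**
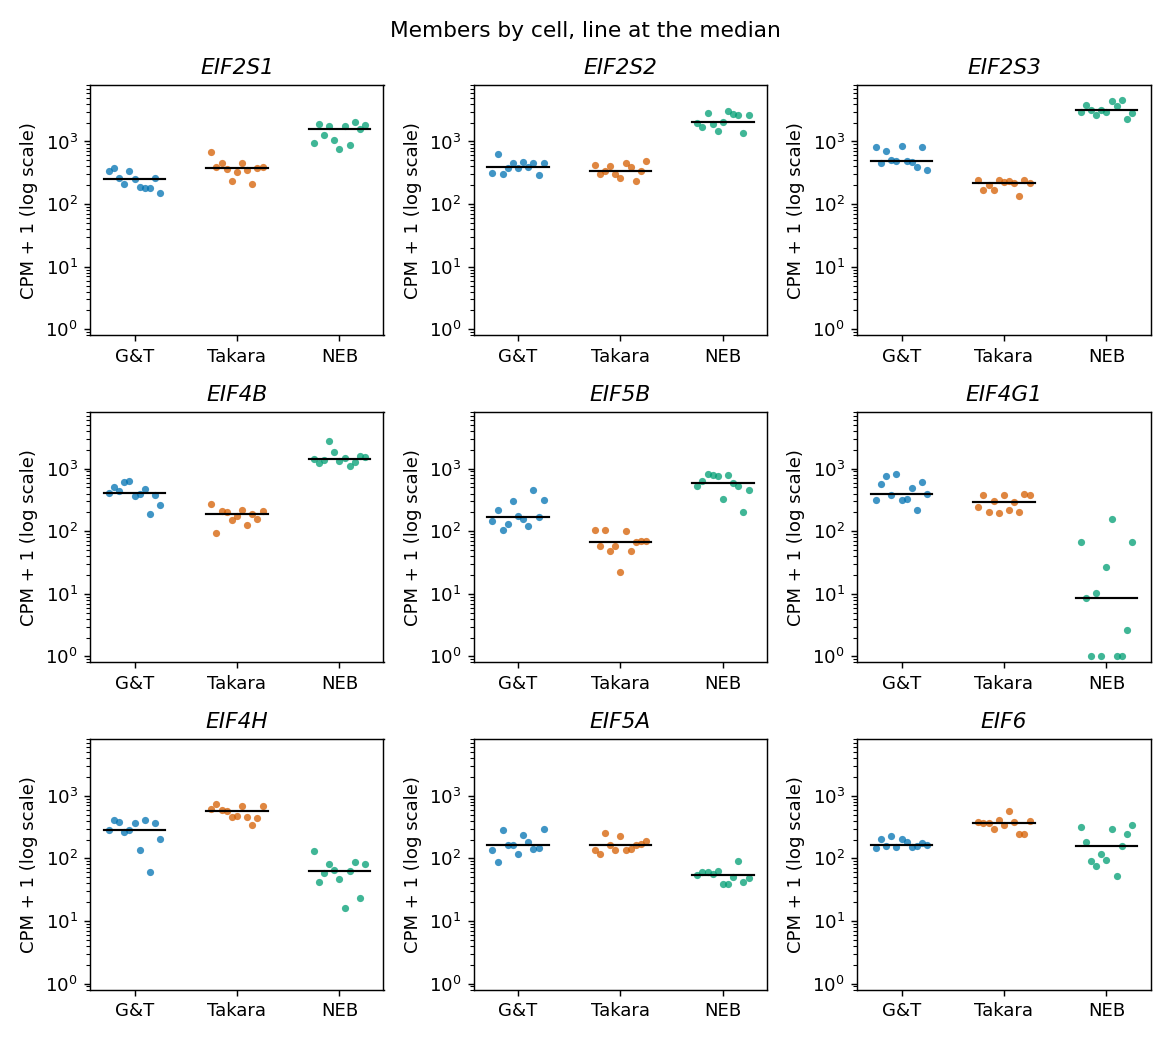
CPM + 1 on a log axis for 9 members in each kept cell (points) of G&T, Takara and NEB, with the median as a line. NEB cells are above all others for EIF2S1, EIF2S2, EIF2S3 and EIF4B, and EIF4G1 has no read in 4 of the 11 NEB cells.

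The subunits of eIF2B, the exchange factor of eIF2, did not follow eIF2. Their sum was 326 CPM in G&T, 680.5 CPM in Takara and 377 CPM in NEB, and Takara cells varied little (685 ± 59.3 CPM against 325 ± 138 in G&T and 381 ± 239 in NEB; SD, n = 11 cells). EIF2B2, the β subunit, had 5.19, 36.0 and 88.5 CPM in G&T, 71.0, 115 and 159 CPM in Takara and 0, 93.8 and 349 CPM in NEB, and G&T was lower than both others by log2 ratios of -1.495 and -1.58. EIF2B4, the δ subunit, had 5.14, 44.2 and 98.5 CPM in G&T, 54.3, 99.2 and 166 CPM in Takara and 0, 3.06 and 180.3 CPM in NEB. Takara was highest, and the call of G&T against Takara (-1.004) ended when any 1 of 10 cells was left out, while without NEB cell H2 that of Takara over NEB moved from 1.60 to 2.37. EIF2B5, the catalytic ε subunit, had 4.18, 60.7 and 257 CPM in G&T, 133, 213 and 288 CPM in Takara and 0, 15.9 and 303 CPM in NEB, with Takara above G&T and NEB past 2-fold and NEB at 0 in 4 cells, and without NEB cell C1 the log2 ratio of Takara over NEB was 2.73 in place of 1.96. EIF2B1 (85.4 CPM in G&T, 171 CPM in Takara and 96.1 CPM in NEB) and EIF2B3 (62.5 CPM in G&T, 78.3 CPM in Takara and 69.4 CPM in NEB) were within 2-fold in every comparison, though EIF2B1 was close to it for G&T over Takara (-0.997).

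EIF2A and EIF2D can bring tRNA to the ribosome without eIF2. EIF2A had 45.8, 69.8 and 130.1 CPM in G&T, 45.4, 104 and 132 CPM in Takara and 1.53, 214 and 514 CPM in NEB, and NEB was higher than both others by log2 ratios of -1.74 and -1.37. EIF2D had 7.87, 30.1 and 104 CPM in G&T, 44.4, 74.6 and 159.9 CPM in Takara and 0, 0 and 110.2 CPM in NEB, and it was highest in Takara and past 2-fold in all 3 comparisons. It was seen in 5 NEB cells, and without NEB cell C1 the log2 ratio of G&T over NEB was 2.51 in place of 1.37 and that of Takara over NEB 3.74 in place of 2.59. EIF2A and EIF2D thus differed in which protocol read them most.

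eIF3 is the largest of the factor complexes, and 13 of its 14 genes reached 5 CPM. For G&T over Takara 1 was higher and 1 lower (17.8% and 19.8% of all genes were), for G&T over NEB 3 and 2 (41.0% and 20.6%), and for Takara over NEB 6 and 2 (41.7% and 22.9%). The share of eIF3 genes higher in Takara than in NEB was thus near that of all genes. EIF3K, a small peripheral subunit, had 165, 283 and 568 CPM in G&T, 152, 204 and 275 CPM in Takara and 0, 73.7 and 552 CPM in NEB. With merged exons it had the highest eIF3 level per length in G&T and Takara (110.1 and 73.2 RPKM), and EIF3H in NEB (81.0 RPKM). The call of EIF3K in G&T against NEB (1.00) ended when any 1 of 11 cells was left out. EIF3H had 167, 289 and 538 CPM in G&T, 243, 293 and 373 CPM in Takara and 307, 566 and 827 CPM in NEB and was within 2-fold throughout. Ranks per length depend on the gene model, since merged exons of EIF3E span 37761 bases and its MANE Select transcript 2022. With the MANE length EIF3E had 174, 222 and 553 RPKM and ranked 6, 7 and 3 of 52, and with merged exons 36, 36 and 21. By MANE lengths the highest of the eIF3 genes were EIF3K in G&T (399 RPKM), EIF3I in Takara (371 RPKM) and EIF3E in NEB.

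Of the core eIF3 subunits, EIF3A, the scaffold, had 159, 229 and 360.4 CPM in G&T, 54.1, 101 and 199.7 CPM in Takara and 0, 174 and 731 CPM in NEB. It was past 2-fold above Takara in G&T (1.12) and in NEB (-1.16 for Takara over NEB), and the latter was -0.81 without NEB cell C2 and -0.98 without D2. EIF3B was within 2-fold in all comparisons (157 CPM in G&T, 118 CPM in Takara and 79.6 CPM in NEB). EIF3C had 21.8, 31.7 and 53.6 CPM in G&T, 26.1, 43.3 and 64.1 CPM in Takara and 0, 1.32 and 33.0 CPM in NEB, with reads it shares with EIF3CL uncertain, and the ratios to NEB were 2.31 and 2.54, or 2.90 and 3.13 without NEB cell A1. The low EIF3C level stands beside its repeated sequence shown above, and the part of that was not tested.

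Other eIF3 subunits differed in opposite directions against NEB. EIF3E had 73.6, 353 and 744 CPM in G&T, 308, 476 and 571 CPM in Takara and 725, 1115 and 1915 CPM in NEB, and every NEB cell lay above every Takara cell. EIF3G, an RNA-binding subunit, had 7.26, 60.7 and 115 CPM in G&T, 59.9, 123 and 155 CPM in Takara and 0, 0 and 92.9 CPM in NEB. It was seen in 3 NEB cells, and the NEB level came nearly all from cell B1: without it the log2 ratio of G&T over NEB was 4.96 in place of 2.64, and that of Takara over NEB 5.95 in place of 3.64. EIF3F, which stands in the same module as EIF3H, had 27.2, 61.7 and 133 CPM in G&T, 92.6, 140.3 and 202 CPM in Takara and 0, 31.5 and 209.7 CPM in NEB, with Takara highest. Of the rest, EIF3I, EIF3D and EIF3L were past 2-fold above NEB in Takara alone (1.61, 1.28 and 1.39), EIF3M was past 2-fold above G&T in NEB alone (-1.20 for G&T over NEB), and EIF3J was within 2-fold. For EIF3L, 51.8% of the exon bases overlap another listed gene.

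On the cap-binding side of eIF4, EIF4EBP1, the mTOR-regulated repressor of eIF4E, was among the most abundant members per length. It was at 306, 409 and 389 RPKM and ranked 1, 1 and 3 of the 52, or 3, 2 and 5 by MANE lengths. EIF4E ranked 26, 15 and 13 with merged exons. By cell EIF4EBP1 had 77.6, 252 and 507 CPM in G&T, 174, 386 and 561 CPM in Takara and 97.8, 269 and 702 CPM in NEB. EIF4EBP1 was within 2-fold between all protocols, whereas the median gene of like GC content was lower in NEB, as given with the base composition below. EIF4EBP1 took 95.3%, 97.1% and 94.8% of the reads of the 4E-BP genes per length, the rest being almost all EIF4EBP2. EIF4EBP3 had 3, 0 and 0 reads, and 73.2% of its exon bases lie under another listed gene. EIF4E itself had 53.1, 73.5 and 196 CPM in G&T, 142, 228 and 384 CPM in Takara and 99.5, 317 and 543 CPM in NEB, and G&T was lower than both others (-1.41 and -1.79). Within the cap-binding genes its share per length with merged exons was 69.2% (G&T), 82.0% (Takara) and 78.1% (NEB), but 29.5%, 45.4% and 38.1% with MANE lengths, when EIF4E2 was the larger. EIF4E2 had pooled levels of 90.5 CPM in G&T, 122 CPM in Takara and 216 CPM in NEB. EIF4E3 had at most 6.42 CPM pooled, in G&T, and EIF4E1B at most 1.02 CPM, in Takara. EIF4ENIF1, which shuttles eIF4E into the nucleus, had 0, 11.8 and 48.0 CPM in G&T, 0, 12.1 and 46.4 CPM in Takara and 0, 0 and 12.8 CPM in NEB, with 8 NEB reads, all in cell G2, without which its log2 ratios to NEB were 4.13 and 3.88 in place of 3.13 and 2.88.

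Of the eIF4G scaffolds, pooled over cells, EIF4G1 was highest in G&T and EIF4G2 in Takara, while EIF4G3 was highest in NEB only with NEB cell G2 counted. EIF4G1 (ENSG00000114867, chr3:184314495-184335358, plus strand) had 215, 397 and 816 CPM in G&T, 196, 290.0 and 393 CPM in Takara and 0, 7.56 and 158 CPM in NEB. Every G&T and Takara cell lay above every NEB cell, by log2 ratios of 3.99 (95% interval 3.76 to 4.21) and 3.30 (95% interval 3.07 to 3.53), and without NEB cell D2 these were 4.69 and 4.00. EIF4G2, which lacks the eIF4E-binding part, had 140.2, 434 and 673 CPM in G&T, 365, 632 and 2207 CPM in Takara and 0, 181 and 1250.1 CPM in NEB, with its highest cell, Takara A2, deciding the call of Takara over NEB (1.00 without it, 1.28 with it) and that of G&T over Takara (-0.79 in place of -1.07), which was -0.98 without G&T cell E2. EIF4G3 had 13.6, 49.5 and 114 CPM in G&T, 0, 4.04 and 21.5 CPM in Takara and 0, 42.5 and 365 CPM in NEB. Takara was lowest, by a log2 ratio of 2.43 (95% interval 2.06 to 2.80) for G&T over Takara and of -2.70 for Takara over NEB (-2.01 without NEB cell G2). For G&T over NEB the EIF4G3 ratio was -0.27, within 2-fold, and 0.42 without NEB cell G2. With merged exons, EIF4G1 took 52.7% of the eIF4G reads per length with G&T, 26.4% with Takara and 7.06% with NEB, and EIF4G2 took 42.8%, 72.9% and 81.2%. By MANE lengths EIF4G1 took 45.1%, 20.7% and 5.32% and EIF4G2 50.6%, 78.8% and 84.5%, so EIF4G2 was then the larger in each protocol. By cell, with merged exons, the EIF4G1 share ran from 34.2% to 68.3% in G&T, from 14.3% to 37.0% in Takara and from 0% to 94.8% in the 10 NEB cells with such reads.

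The helicase eIF4A was read almost wholly as EIF4A2 and EIF4A3. EIF4A1 (ENSG00000161960, chr17:7572824-7579006, plus strand), the usual eIF4A of the cap complex, had 12 reads with G&T, 6 with Takara and 27 with NEB. All 1758 bases of its MANE Select transcript lie under exons of another listed gene on the same strand, and reads on 2 genes enter the ambiguous category, so these counts give no level of EIF4A1. EIF4A2 had 215, 465 and 763 CPM in G&T, 171, 312 and 623 CPM in Takara and 328, 1011 and 1716 CPM in NEB, with NEB past 2-fold above both others (-1.498 for Takara over NEB and -1.16 for G&T over NEB). EIF4A3 (ENSG00000141543, chr17:80134369-80147151, minus strand), a subunit of the exon junction complex, had 34.2, 206 and 332 CPM in G&T, 437, 626 and 955 CPM in Takara and 0, 116 and 703 CPM in NEB. Every Takara cell lay above every G&T cell, by a log2 ratio of -1.70 (95% interval -1.80 to -1.60) for G&T over Takara. Of the eIF4A reads per length, EIF4A2 took 68.4% with G&T, 34.6% with Takara and 80.2% with NEB.

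The helicase cofactors EIF4B and EIF4H, which are related RNA-binding proteins, ran in opposite directions. EIF4B (ENSG00000063046, chr12:53006282-53042215, plus strand) had 184, 408 and 636 CPM in G&T, 93.5, 188 and 269 CPM in Takara and 1084, 1449 and 2741 CPM in NEB, and every NEB cell lay above all others. EIF4H (ENSG00000106682, chr7:74174231-74197122, plus strand) had 58.6, 281 and 412 CPM in G&T, 342, 561 and 750.2 CPM in Takara and 15.2, 63.0 and 129 CPM in NEB, and every Takara cell lay above every NEB cell. The log2 ratios of Takara over NEB were -3.10 (95% interval -3.19 to -3.02) and 3.11 (95% interval 2.95 to 3.27). For G&T over NEB they were -1.87 and 2.13, with the G&T cells of EIF4H overlapping those of NEB through 1 low cell, E2 at 58.6 CPM.

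EIF5 and EIF5B, which act late in initiation, were read most in NEB. EIF5, the GTPase activator of eIF2, had 147, 389 and 621 CPM in G&T, 267, 386 and 936 CPM in Takara and 744, 1056 and 2219 CPM in NEB, and the ratios to NEB were -1.71 and -1.45, with G&T cells all below NEB cells. EIF5B (ENSG00000158417, chr2:99337371-99401326, plus strand), the GTPase of subunit joining, had 105, 170.0 and 454 CPM in G&T, 21.3, 67.2 and 104 CPM in Takara and 202, 582 and 812 CPM in NEB. Takara was lowest, under every G&T cell and every NEB cell, by log2 ratios of 1.69 (95% interval 1.52 to 1.85) for G&T over Takara and -3.12 (95% interval -3.27 to -2.98) for Takara over NEB. EIF5A, the hypusine-bearing factor, had 86.6, 161 and 293 CPM in G&T, 118, 163 and 251 CPM in Takara and 37.4, 54.0 and 89.6 CPM in NEB, so NEB was lowest and below every Takara cell. It took 98.2%, 96.4% and 93.7% of the eIF5A reads per length, and its near copy EIF5AL1, whose sequence is shown above, had 19, 12 and 6 reads. EIF5A2 stayed low (4.00 CPM in G&T, 11.4 CPM in Takara and 6.40 CPM in NEB). EIF6 (ENSG00000242372, chr20:35278907-35284985, minus strand) had 146, 163 and 223 CPM in G&T, 241, 373 and 569 CPM in Takara and 51.8, 157 and 336 CPM in NEB, and every Takara cell lay above every G&T cell. The EIF6 ratios of Takara to G&T and to NEB were just past 2-fold (-1.06 for G&T over Takara and 1.05 for Takara over NEB) and fell within it without Takara cell D2 (-0.99 and 0.99). That of Takara over NEB also fell within it without NEB cell B1 (0.99), C1 (0.98), D1 (0.96) or E1 (0.95).

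The ratios to NEB followed base composition, in members as in other genes. Across the 44 members, GC content and the log2 ratio had a Spearman rho of 0.67 in the comparison of G&T with NEB and 0.61 in that of Takara with NEB, and across all 9325 genes 0.63 and 0.65. For G&T over Takara rho was -0.12 and -0.18. Genes are not independent replicates, and all points of a comparison share the same libraries. With the genes in 5 bins of GC content, in the lowest bin (30.7% to 40.0%), the 10 members had a median log2 ratio of -1.15 for Takara over NEB, beside -0.996 for all genes there, and in the bin below the highest (50.2% to 57.1%) the 13 members had 1.61 beside 1.69. In the highest bin only 3 members stood, with a median of 1.05 beside 3.22. In each of the 5 bins the members' median lay below that of all genes, for G&T over NEB as for Takara over NEB. For G&T over NEB it was -1.32 beside -0.87 in the lowest bin and -0.27 beside 0.29 in the middle bin. EIF2S2 and EIF4B, at 44.4% and 44.8%, lay in the middle bin. For Takara over NEB the median of all genes there was 0.352, that of the members -0.08, and the ratios of EIF2S2 and EIF4B were -2.64 and -3.10. With each ratio centred on the median of genes of like GC content, 4 members in place of 9 were higher in G&T than in NEB and 7 in place of 18 were higher in Takara than in NEB. Lower were 12 in place of 14 and 12 in place of 13, with other members among them. In G&T, EIF3B, EIF4A3, EIF4EBP1 and EIF6 were newly past 2-fold below NEB, and in Takara EIF3B, EIF3K, EIF4E2, EIF4EBP1 and EIF6 were. EIF4EBP1, at 62.9% GC, was then at -3.32 (G&T) and -3.22 (Takara) against NEB, and EIF6 at -2.28 and -1.66. Of the ratios to NEB past 2-fold before centring, those of EIF5A then reversed in both comparisons. So did that of EIF3K with G&T, and those of EIF2B4 and EIF6 with Takara. The part of base composition in any single ratio was not tested.

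**Figure D4:**
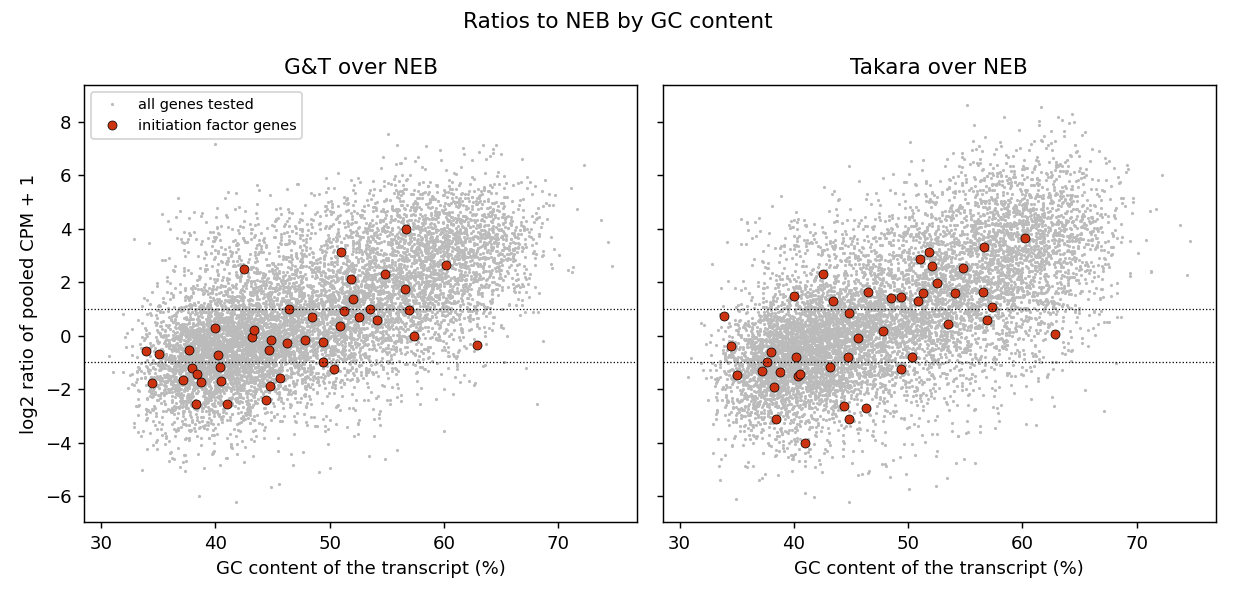
Log2 ratio of pooled CPM + 1 to NEB against the GC content (%) of the transcript for all 9325 genes with a mean of at least 5 CPM (grey) and the 44 initiation factor genes among them (red), for G&T (left) and Takara (right). Both sets slope upward, with rho of 0.67 and 0.61 in the members, and dotted lines mark 2-fold.

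Other genes of translation, 37 in lists of eIF2 kinases and stress response, mTOR and MNK signalling, poly(A)-binding proteins, recycling and helicases, hypusine enzymes and elongation, were counted in the same way. Of the 34 that reached 5 CPM, 7 were higher and 3 lower in G&T than in Takara (17.8% and 19.8% of all genes were), 16 and 4 in G&T than in NEB (41.0% and 20.6%), and 12 and 6 in Takara than in NEB (41.7% and 22.9%). EEF2, the translocase of elongation, had 668 CPM in G&T, 119 CPM in Takara and 34.2 CPM in NEB, so the 3 protocols were past 2-fold apart in each comparison. PABPC1, the main poly(A)-binding protein, had 1107 CPM in G&T, 294 CPM in Takara and 816 CPM in NEB. EEF1A2, the second eEF1A, had 30.6 CPM in G&T, 0.853 CPM in Takara and no NEB read. RPS6KB2, an S6 kinase, had 50.2 and 138 CPM in G&T and Takara and no NEB read. By counting error alone this allows up to 0.376 CPM in NEB, and the levels were 133-fold and 367-fold above that floor. DOHH, which completes hypusine on eIF5A, had 15.6 and 51.8 CPM and no NEB read, 41.4-fold and 138-fold above the floor. EEF2K, the kinase of eEF2, had 23.8 and 12.8 CPM and no NEB read, 63.2-fold and 34.0-fold above it. Reads are not independent molecules, so these folds are not lower limits of the difference in level. EEF1G is listed at 0 in all 3 protocols.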

How the data were processed

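Single T47D cells amplified with G&T, Takara or NEB were analysed from 3 deposited tables of raw read counts, in which the authors merged the cells of a protocol. The authors trimmed reads with Trim Galore, checked them with FastQC, aligned them to GRCh38 with STAR and took its counts per gene; the annotation release and the strand setting of the counts are not given in the sources used here. The counts hold no molecular identifiers. SMART-Seq3 cells are not analysed here, and the list of blood markers is not reported here.

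Following the study, cells with under 1000 genes, a library under 600000 reads, a mitochondrial share over 30% or an ERCC share over 25% were dropped, which left out G&T C2 and F1, Takara C2 and F1, and NEB B2, F1 and F2. Groups came from the sample titles. Gene types, lengths, GC content and coordinates came from GENCODE 44, a release that may differ from that of the counts. CPM and RPKM were computed here on reads on genes, with ERCC reads left out. Ratios used pooled CPM with a pseudocount of 1 CPM. Genes were compared at a mean pooled CPM of at least 5, calls were made at 2-fold, and intervals are 95% exact Poisson or binomial ones for counting error. A count of 0 was given a floor of 3 reads. No test was run, since a protocol is 1 sample. The ratios and calls were tested on simulated pooled counts with known ratios and Poisson error. Those counts held no spread between cells, so how the calls hold under such spread was not tested on them. The thinning was checked against random draws from 1 NEB cell.

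Members, gene lists and tests were chosen with earlier results of these data known. Named in full were the 2 members of each factor with the highest mean RPKM, members past 2-fold in at least 2 comparisons and the paralogue groups, and of the other lists the 3 genes with the largest ratio in each comparison. Alternatives covered the cells kept, denominators, TMM and RLE scaling, pooling, pseudocount, filter, fold, detection, gene length, GC content and leaving out each cell. Scaling factors came from edgeR 4.0.16 in R 4.3.3. All else ran in Python 3.11.15, with numba 0.67.0, scipy 1.17.1, pandas 2.3.3, numpy 2.4.6 and matplotlib 3.10.9.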

Additional observations from a re-analysis of the deposited data

Results flagged for a closer look

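Initiation factor reads were also present in the 7 cells that the thresholds left out and that no comparison uses, above what a count of 0 allows in each. The members summed to 5638 CPM in G&T cell C2 and 9625 CPM in G&T cell F1, to 2153 CPM in Takara cell C2 and 7009 CPM in Takara cell F1, and to 10451 CPM in NEB cell B2, 16186 CPM in NEB cell F1 and 16768 CPM in NEB cell F2. Takara C2 and F1 and NEB F1 rest on few reads: 33, 56 and 23 member reads of 15325, 7990 and 1421 reads on genes. ERCC spike-ins took 91.3%, 96.7% and 99.7% of the library in these 3 cells.

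Pseudogenes with EIF1 to EIF6 symbols, which the protein-coding rule leaves out, also held reads. Of 81 listed, 30 had reads with G&T, 21 with Takara and 14 with NEB, summing to 31.6 CPM, 11.8 CPM and 15.6 CPM. That is 0.350%, 0.108% and 0.0861% of the member reads.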

How the results depend on the processing

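Cells of 1 run say nothing of the spread between runs, genes near 5 CPM rest on few NEB reads, and the counts give no level of EIF4A1. No paired analysis was possible because no test was made and wells of the protocols share only a name. The direction of the summed ratios held under every alternative run in which levels are shares of reads, but not per ERCC read, where NEB was lowest (15.6 member reads per 100 ERCC reads, against 51.6 in G&T and 122 in Takara). Without mitochondrial genes in the denominator the sums were 10727, 12095 and 19917 CPM in G&T, Takara and NEB, and with ERCC reads in it the NEB sum was 15962 CPM. The log2 ratio of the summed level for Takara over NEB was then -0.57 in place of -0.73. Without EIF2S1, EIF2S2 and EIF2S3 (an alternative chosen after seeing the data, as were the GC centring and the MANE lengths), the NEB sum was 11063 CPM and the log2 ratios were -0.51 for G&T against NEB in place of -1.002 and -0.15 for Takara against NEB.

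At 1.5-fold, 8 members were higher and 19 lower for G&T over Takara, and 15 were higher for G&T over NEB, as also with median CPM over cells (15). Centred on genes of like GC content, 4 were higher in G&T than in NEB and 7 in Takara than in NEB. Of the ratios past 2-fold before centring, those of EIF3K (-0.35) and EIF5A (-0.29) in G&T over NEB then reversed. In Takara over NEB those of EIF2B4 (-0.18), EIF5A (-0.71) and EIF6 (-1.66) did. With all deposited cells, members apart between cells were 1 higher and 0 lower for G&T over Takara, 2 lower for G&T over NEB, and 0 higher and 3 lower for Takara over NEB, and 40.2 members were detected per Takara cell. At a minimum of 5 reads, 43.9 were detected in G&T and 43.6 in Takara. With MANE lengths the EIF4E share was 29.5%, 45.4% and 38.1%. The cause of these moves was not tested beyond what each alternative leaves out or changes. Leaving out each cell in turn gave 1 to 2 members apart with G&T above NEB. Of the 69 member calls at 2-fold, 8 ended without some single cell and 13 moved by over 1.5 times.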

Other observations

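Of the kinases that phosphorylate eIF2, EIF2AK1, the heme-regulated one, had 347 CPM in G&T, 419.6 CPM in Takara and 115.0 CPM in NEB, and EIF2AK4, which senses amino acid shortage, had 129, 76.0 and 61.6 CPM. EIF2AK2, the kinase activated by double-stranded RNA, had 58.1, 28.8 and 34.5 CPM, and EIF2AK3, the kinase of the endoplasmic reticulum, was low throughout, at 7.26, 7.43 and 12.04 CPM. ATF4, whose translation is raised when eIF2 is phosphorylated, had 317, 150.3 and 65.1 CPM and was lowest in NEB. DDIT3 (24.1, 13.8 and 35.2 CPM) and PPP1R15B (41.7, 26.5 and 50.7 CPM), of the same stress response list, were highest in NEB, as was EIF2AK3. The list thus kept no single order. Of the 7 genes of this list that reached 5 CPM, 1 was past 2-fold higher in G&T than in Takara (17.8% of all genes were) and 3 in G&T than in NEB (41.0%), while in Takara 2 were higher (41.7%) and 1 lower (22.9%) than in NEB. The 3 of 7 is near the share of all genes. These genes were named after their values were seen.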
